A study of Mus musculus with 16 samples.

Results

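The 9 receptors described here are members of the tumour necrosis factor (TNF) receptor superfamily, chosen by name from the 22375 genes of the count tables: Fas, Tnfrsf10b, Tnfrsf1a, Tnfrsf21, Tnfrsf1b, Tnfrsf12a, Tnfrsf19, Eda2r and Ltbr. All 9 passed the filter on low counts and were tested among 15762 genes. RNA was sequenced from mouse embryonic stem (ES) cells of strain 129/OLA, grown on gelatin with serum and LIF. Wild-type (WT) cells were the E14TG2a line, and Cfp1-/- cells lack Cfp1 (gene Cxxc1), the CpG-binding subunit of the Set1 histone H3K4 methyltransferase complexes. Each line was left untreated or given doxorubicin, a DNA-damaging drug, at 1 μM for 6 h, as the protocol states; the treatment label writes the same number in mM. The 4 groups had 2 biological replicates each, every one sequenced as 2 technical replicates. Each genotype is represented by 1 line, so a difference between genotypes cannot be told apart from a difference between these lines. Whether the biological replicates were separate cultures is not given in the sources used here, so p-values measure only the spread between these samples.

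TNF receptors are single-pass membrane proteins that bind trimeric ligands of the TNF family. A subset carries an intracellular death domain, through which adaptors such as FADD and TRADD recruit caspase 8 or RIPK1, while receptors without it bind TRAF adaptors and signal mainly to NF-kB and JNK. Several family members are transcribed in response to p53 after DNA damage, Fas and the TRAIL receptor being the classic cases. Of the 9 receptors only Fas, Tnfrsf10b, Tnfrsf1a and Tnfrsf21 carry a death domain, so the name death receptors covers these alone, and the other 5 are called TRAF-binding receptors below.

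Because Cfp1 binds unmethylated CpG, the 250 bases upstream of the start are shown for 4 receptors on which the results turn: Fas, with the largest response, Tnfrsf1a, which was higher in treated Cfp1-/- cells, and Eda2r and Ltbr, which rose in both lines and were lower in Cfp1-/- cells. They are from RefSeq (GRCm38.p6, a later build than that of the counts), read 5′ to 3′ on the strand of the gene, with every CpG in capitals.
Fas, chr19:34290409-34290658, + strand: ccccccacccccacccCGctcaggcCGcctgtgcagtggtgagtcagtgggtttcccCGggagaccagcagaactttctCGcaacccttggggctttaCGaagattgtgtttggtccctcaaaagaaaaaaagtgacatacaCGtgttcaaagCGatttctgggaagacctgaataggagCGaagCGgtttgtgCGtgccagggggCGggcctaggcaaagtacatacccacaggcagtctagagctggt
Tnfrsf1a, chr6:125349473-125349722, + strand: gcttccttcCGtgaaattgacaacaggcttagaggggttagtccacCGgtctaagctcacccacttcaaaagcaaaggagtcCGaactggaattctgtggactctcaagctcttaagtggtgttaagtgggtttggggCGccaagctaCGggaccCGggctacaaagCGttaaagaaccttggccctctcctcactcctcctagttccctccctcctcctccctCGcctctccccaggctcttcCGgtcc
Eda2r, chrX:97377210-97377459, - strand: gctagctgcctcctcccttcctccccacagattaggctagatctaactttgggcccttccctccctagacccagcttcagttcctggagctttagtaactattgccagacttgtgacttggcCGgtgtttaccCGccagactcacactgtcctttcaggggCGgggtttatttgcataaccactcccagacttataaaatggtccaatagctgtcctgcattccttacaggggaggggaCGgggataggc
Ltbr, chr6:125313886-125314135, - strand: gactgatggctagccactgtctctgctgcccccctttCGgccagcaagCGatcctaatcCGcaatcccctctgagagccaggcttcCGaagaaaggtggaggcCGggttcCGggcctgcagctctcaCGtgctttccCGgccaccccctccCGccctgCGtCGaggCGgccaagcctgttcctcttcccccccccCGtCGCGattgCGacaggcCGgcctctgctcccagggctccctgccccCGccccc
Promoter sequence was matched for 8 of the 9 receptors; Tnfrsf10b had no entry. In the window of 300 bases that also covers the first transcribed bases, Eda2r held 5 CpG and Ltbr 23, against a median of 7 and quartiles of 3 and 20 over 32851 promoters. Fas held 14, Tnfrsf1a 11, Tnfrsf1b 13, Tnfrsf21 17 and Tnfrsf12a 20, and the 2 starts of Tnfrsf19 held 14 and 13. Eda2r was thus the only one of the matched receptors under the median of all promoters. Methylation and Cfp1 binding of these windows were not examined here, and whether their CpG bear on the receptor levels was not tested. The Eda2r window also held TATAAA, on either strand, which none of the other matched receptors had and which 13.6% of promoters hold. GGGCGG, searched on both strands, was found in the Fas, Tnfrsf21, Tnfrsf1b, Tnfrsf12a, Eda2r and Ltbr windows and at 1 of the 2 Tnfrsf19 starts, and in 35.7% of promoters. CACGTG was found in the Fas, Tnfrsf21, Eda2r and Ltbr windows and at 1 of the 2 Tnfrsf19 starts, and in 7.15% of promoters. The p53 consensus decamer (8.36% of promoters) and the NF-kB consensus (4.51%) had no match in any of the matched windows, which says only that those letters are not there.

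In the cells the label of the targeted gene held. Cxxc1 had 616 to 1412 counts in the 4 WT libraries and 1 to 4 in the 4 Cfp1-/- libraries. The p53 targets Cdkn1a and Mdm2 were higher in every treated library than in every untreated library. Counts summed per biological replicate ranged from 11772320 to 29422711, and levels are given as CPM, the counts of a gene scaled to a common library total, after TMM scaling. The 10 pluripotency markers summed to 3344 to 4575 CPM in untreated and 1330 to 1827 CPM in treated libraries, and none was at 3 counts or fewer. The 8 fibroblast markers summed to 11.4 and 12.3 CPM in untreated and 20.4 and 27.6 CPM in treated WT libraries, and to 6.52 and 6.61 against 19.9 and 27.2 CPM in Cfp1-/- libraries, with 3 of the 7 tested called higher after doxorubicin and 0 lower in each line. The 6 leukocyte markers summed to 1.56 to 3.85 CPM in WT and 6.32 to 9.99 CPM in Cfp1-/- libraries, where 2 of the 3 tested were called higher and 0 lower under each treatment. The primitive endoderm markers, 9 genes, summed to 56.9 to 101 CPM in WT and 254 to 472 CPM in Cfp1-/- libraries. Most of that sum was Lama1, a laminin chain, at a mean of 450 CPM in untreated and 229.5 CPM in treated Cfp1-/- cells, and of the 7 markers tested 2, Lama1 and Pdgfra, were called higher in Cfp1-/- cells under each treatment and 0 lower.

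One technical replicate bears directly on Fas and Eda2r. In replicate 1 of the treated Cfp1-/- cells, the second of the technical replicates held 0 Fas counts where its partner run had 290, and 0 Eda2r counts where its partner had 2878. Both genes lie on chromosomes that lost counts in that run: on chromosomes 19, X and Y, 439 of 576 genes with at least 200 counts in the first run were at 0 in the second, against 0 of 7744 elsewhere. That run was left out, and replicate 1 of treated Cfp1-/- cells therefore rests on 1 technical replicate. Had it been summed, the response of Eda2r in Cfp1-/- cells would have been 0.68 on the log2 scale in place of 0.95, and that of Fas 4.29 in place of 4.52.

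**Figure D1:**
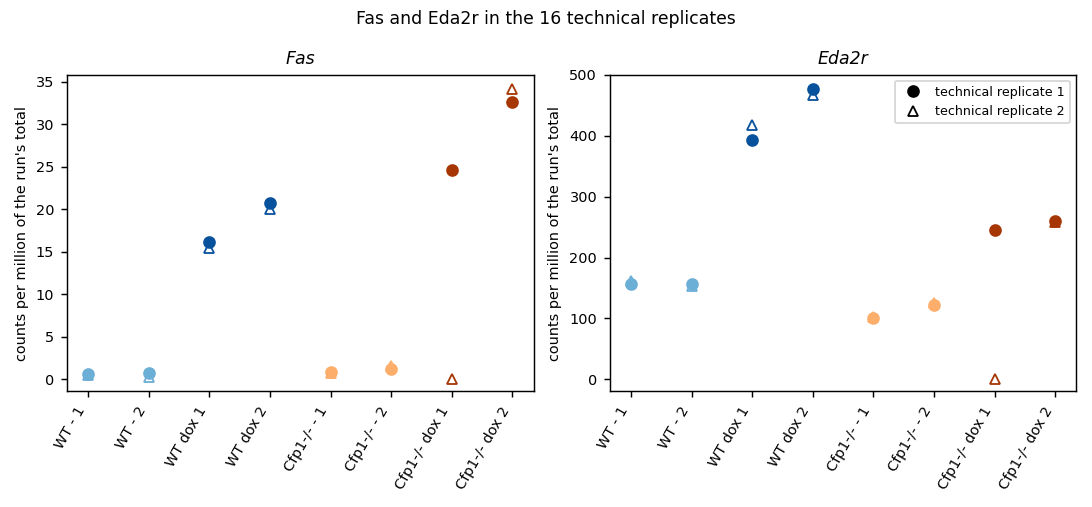
Level of Fas (left) and Eda2r (right) as CPM of the total of each technical replicate (y axis, linear), for the 8 biological replicates (x axis; a dash marks untreated and dox doxorubicin); filled circles are the first and open triangles the second technical replicate. In replicate 1 of the treated Cfp1-/- cells the second run stands at 0 for both genes, and no other run stands at 0 for either gene.

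Doxorubicin raised Fas more than any of the other receptors, and Ltbr, Tnfrsf10b, Eda2r and Tnfrsf19 rose with it in both lines. In WT cells 5 of the 9 receptors were higher and 0 lower at an adjusted p under 0.05, beside 27% and 22.8% of all genes tested in these directions. In Cfp1-/- cells 6 were higher, Tnfrsf1a in addition, and 0 lower, beside 27.7% and 21.4% of all genes. No receptor that was lower had an unadjusted p under 0.05 in either line (edgeR), and DESeq2 likewise called 0 lower. The median log2 fold change of the 9 receptors was 0.95 in WT and 0.92 in Cfp1-/- cells, and that of all genes tested 0.06 and 0.01. The pluripotency and fibroblast markers, given above, moved with treatment as well, and their part in these values was not tested. The study's own limits also ask for 2.5-fold change and 200 normalised counts on average. The study set them on DESeq results of WT cells, and here they were set on edgeR results and TMM-scaled counts of both lines. By these, 0 receptors were called higher in WT cells and 1, Fas, in Cfp1-/- cells, beside 4.99% and 5.15% of all genes called higher. Fas missed the limit in WT cells on its mean alone, which was 177 normalised counts. Ltbr, with a mean of 101 in WT and 39.6 in Cfp1-/- cells, also missed on the mean alone. So did Tnfrsf1a in Cfp1-/- cells, with a mean of 86.3.

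**Figure D2:**
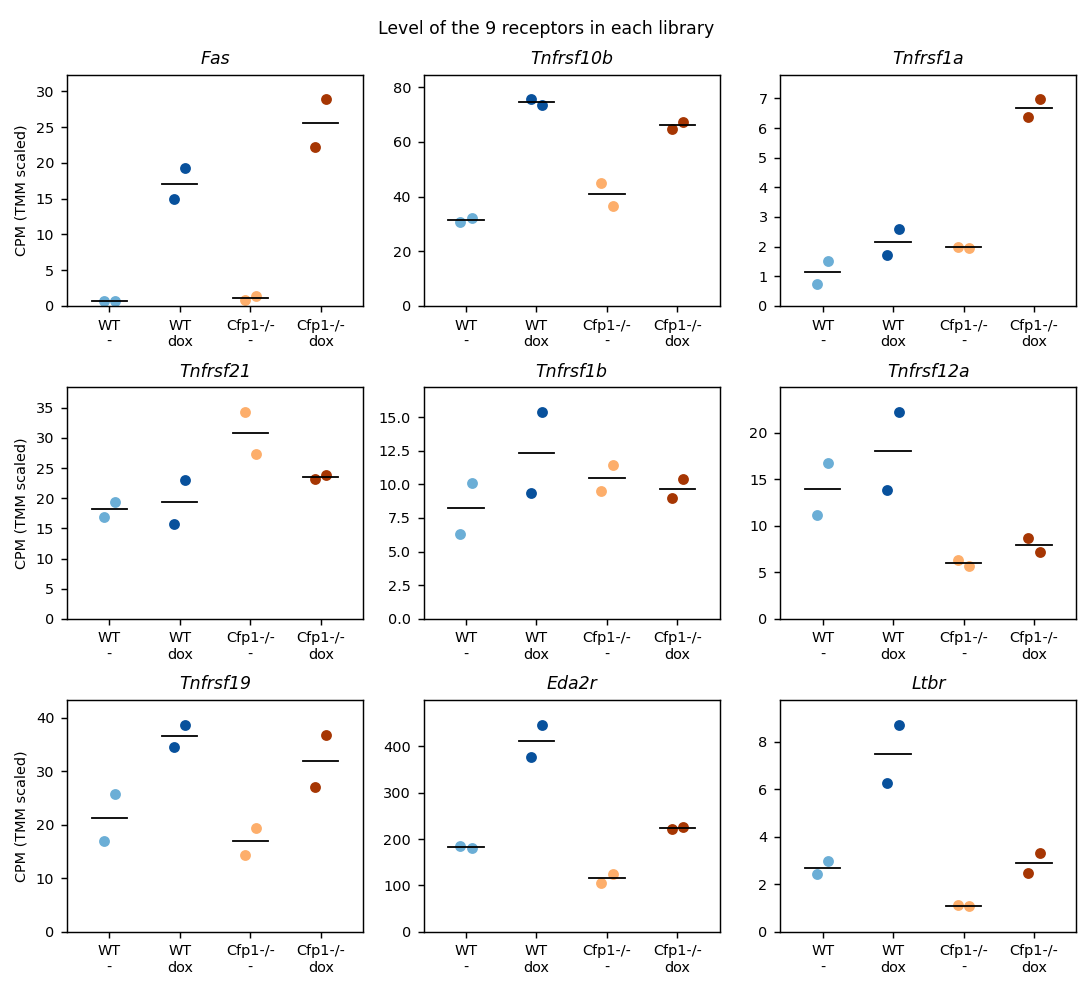
Level of each of the 9 receptors in the 8 biological replicates, as TMM-scaled CPM on linear axes from 0 (y axis), by line and treatment (x axis; a dash marks untreated and dox doxorubicin); points are biological replicates and bars their mean (n = 2). Fas is near the bottom of its axis in all 4 untreated libraries, and Tnfrsf1a is highest in both treated Cfp1-/- libraries.

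Among the death domain receptors, Fas binds Fas ligand and assembles FADD and caspase 8 into the death-inducing complex (chromosome 19, NCBIm37 34365149 to 34402260, plus strand). Its level was 0.635 and 0.632 CPM in untreated WT cells, from 16 and 13 counts, and 14.9 and 19.3 CPM in treated WT cells, from 236 and 379 counts. In Cfp1-/- cells it was 0.843 and 1.36 CPM untreated and 22.3 and 28.9 CPM treated. Treated and untreated libraries did not overlap in either line, and both treated Cfp1-/- libraries were above both treated WT libraries. The log2 fold change was 4.74 ± 0.32 (SE) in WT cells, a 26.8-fold rise (95% interval 16.3 to 44.0), with an adjusted p of 7.5e-06 in edgeR's quasi-likelihood test, adjusted by Benjamini and Hochberg's method. In Cfp1-/- cells it was 4.52 ± 0.30, a 23.0-fold rise (14.4 to 36.7), with an adjusted p of 8.97e-06 in the same edgeR test. The difference between the 2 responses, -0.22 on the log2 scale, had a 95% interval of -1.17 to 0.74 and an adjusted p of 0.892 (edgeR), so the interval still allows differences of either sign.

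Tnfrsf10b is the mouse receptor for TRAIL, also called death receptor 5 (chromosome 14, 70167279 to 70184210, plus strand). It stood at 30.8 and 32.0 CPM in untreated WT cells and at 75.6 and 73.3 CPM after doxorubicin. The Cfp1-/- libraries had 45.1 and 36.5 CPM untreated and 64.8 and 67.2 CPM treated. The 4 groups did not overlap, and the Cfp1-/- groups lay between the WT groups. It rose by 1.24 ± 0.14 on the log2 scale in WT cells (adjusted p 9.76e-05, edgeR) and by 0.70 ± 0.14 in Cfp1-/- cells (adjusted p 0.00265, edgeR). The response in Cfp1-/- cells was smaller by a log2 difference of -0.55 (95% interval -0.99 to -0.11), which did not pass adjustment over all genes (edgeR adjusted p 0.337).

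Tnfrsf1a, the main receptor for TNF on most cells, lies on chromosome 6 (125299380 to 125312502, plus strand). It was low in WT cells, at 0.754 and 1.51 CPM untreated and 1.70 and 2.60 CPM treated, from 19 to 51 counts. Its Cfp1-/- values were 2.00 and 1.96 CPM untreated and 6.38 and 6.97 CPM treated. Both treated Cfp1-/- libraries were above all 6 others, while the treated WT and untreated Cfp1-/- libraries overlapped. The Cfp1-/- response was 1.75 ± 0.37 on the log2 scale (adjusted p 0.0035, edgeR). In WT cells it was 0.95 ± 0.40 and missed the threshold (adjusted p 0.0731, edgeR), but passed with the replicate number as a block (adjusted p 0.0374, edgeR). That value rested on single libraries, and went from 0.52 without untreated WT replicate 1 (adjusted p 0.355) to 1.5 without untreated WT replicate 2, where it passed (adjusted p 0.0257, edgeR). The difference between the responses, 0.80 with a 95% interval of -0.41 to 2.01, did not pass (adjusted p 0.619, edgeR).

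Tnfrsf21, or death receptor 6, is known from axon pruning (chromosome 17, 43153504 to 43226137, plus strand). It was the one death domain receptor that passed the test in neither line. Its levels were 16.9 and 19.4 CPM in untreated and 15.8 and 23.0 CPM in treated WT cells, which overlapped. The Cfp1-/- levels were 34.3 and 27.3 CPM untreated and 23.2 and 23.8 CPM treated, which did not. The log2 fold changes were 0.10 ± 0.21 in WT (95% interval -0.38 to 0.57) and -0.39 ± 0.21 in Cfp1-/- cells (-0.86 to 0.08), with adjusted p of 0.722 and 0.152 by edgeR.

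Of the TRAF-binding receptors, Eda2r (XEDAR, chromosome X, 94529179 to 94572555, minus strand) binds the A2 form of ectodysplasin. Its level in WT cells was 185 and 182 CPM untreated and 378 and 446 CPM treated. Cfp1-/- cells had 105 and 126 CPM untreated and 221 and 225 CPM treated. No 2 groups overlapped, and treated Cfp1-/- libraries exceeded untreated WT libraries. The log2 fold change was 1.17 ± 0.13 in WT (adjusted p 9.94e-05, edgeR) and 0.95 ± 0.13 in Cfp1-/- cells (adjusted p 3.44e-04, edgeR). The difference of -0.21 had a 95% interval of -0.63 to 0.20.

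Ltbr, the lymphotoxin beta receptor, drives the non-canonical NF-kB branch (chromosome 6, 125256589 to 125263903, minus strand, in the same stretch of the chromosome as Tnfrsf1a). It was 2.42 and 2.96 CPM in untreated and 6.25 and 8.70 CPM in treated WT cells. Cfp1-/- cells had 1.11 and 1.08 CPM untreated, from 25 and 27 counts, and 2.46 and 3.30 CPM treated. Treated Cfp1-/- libraries overlapped untreated WT libraries, and no other neighbouring groups overlapped. It rose by 1.48 ± 0.30 on the log2 scale in WT (adjusted p 0.00313, edgeR) and by 1.40 ± 0.33 in Cfp1-/- cells (adjusted p 0.00689, edgeR). The latter call was lost without replicate 2 of treated Cfp1-/- cells (1.16, adjusted p 0.0729, edgeR). The difference of -0.07 had a 95% interval of -1.13 to 0.98.

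Tnfrsf19 (TROY, chromosome 14, 61582671 to 61665692, minus strand) is expressed in neural and epithelial progenitors and is a known Wnt target. It was 16.9 and 25.7 CPM in untreated and 34.5 and 38.6 CPM in treated WT cells. Cfp1-/- levels were 14.4 and 19.4 CPM untreated and 27.1 and 36.8 CPM treated. Treated and untreated libraries were apart in each line, and the lines overlapped under each treatment. The log2 fold changes of 0.78 ± 0.24 in WT and 0.92 ± 0.25 in Cfp1-/- cells passed the test with adjusted p of 0.024 and 0.0121 (edgeR). The WT call was lost without untreated replicate 1 (0.51, adjusted p 0.154) or treated replicate 2 (0.69, adjusted p 0.0861), and the Cfp1-/- call without untreated replicate 1 (0.71, adjusted p 0.092) or treated replicate 2 (0.68, adjusted p 0.122), all by edgeR.

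The other TRAF-binding receptors passed in neither line. Tnfrsf1b, the second TNF receptor, is mostly known from immune cells (chromosome 4, 144803366 to 144836773, minus strand). It was 6.31 and 10.1 CPM untreated and 9.34 and 15.4 CPM treated in WT cells, and 9.50 and 11.4 CPM untreated and 8.99 and 10.4 CPM treated in Cfp1-/- cells. All neighbouring groups overlapped, and the log2 fold changes were 0.60 ± 0.30 and -0.11 ± 0.30 (adjusted p 0.13 and 0.791, edgeR). With the replicate number as a block the WT response passed (adjusted p 0.0286, edgeR). It also passed without untreated WT replicate 2 (0.96, adjusted p 0.0483) or treated WT replicate 1 (0.91, adjusted p 0.0418), and was 0.18 without treated WT replicate 2 and 0.29 without untreated WT replicate 1 (adjusted p 0.68 and 0.509), all by edgeR. Tnfrsf12a (Fn14), the receptor for TWEAK, lies on chromosome 17 (23812414 to 23814416, minus strand) and overlaps Hcfc1r1 on the opposite strand, which the stranded counting kept apart. Its level was 11.1 and 16.7 CPM untreated and 13.8 and 22.2 CPM treated in WT cells, and 6.35 and 5.64 CPM untreated and 8.68 and 7.16 CPM treated in Cfp1-/- cells. Its log2 fold changes were 0.38 ± 0.28 in WT and 0.40 ± 0.29 in Cfp1-/- cells (adjusted p 0.292 and 0.295, edgeR).

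**Figure D3:**
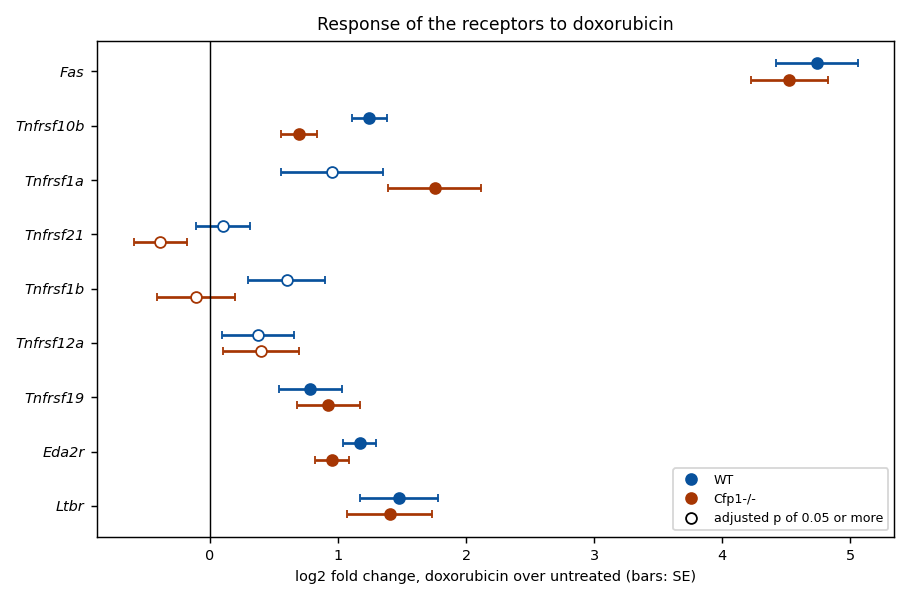
Log2 fold change of each receptor on doxorubicin (x axis; bars are SE), in WT and Cfp1-/- cells (n = 2 per group), with receptors on the y axis; filled points passed an adjusted p of 0.05 by edgeR and open points did not. Fas lies at 4.74 and 4.52, and all other values lie between -0.39 and 1.75.

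The responses of the 2 lines were compared directly by the interaction term. At an adjusted p under 0.05, 0 receptors had a larger and 0 a smaller response in Cfp1-/- than in WT cells, beside 0.0952% and 0.152% of all genes (15 and 24 genes). At an unadjusted p under 0.05, 1 receptor, Tnfrsf10b, stood out (p 0.019 by edgeR), and by DESeq2 0 passed. The median difference of the 9 receptors was -0.21, and that of all genes 0.01. All 9 intervals of these differences spanned more than 0.8 on the log2 scale, and a p above the threshold does not show equal responses.

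Between the genotypes, the same 3 TRAF-binding receptors were lower in Cfp1-/- cells with and without doxorubicin. In untreated cells 1 receptor, Tnfrsf21, was higher in Cfp1-/- than in WT cells, and 3, Tnfrsf12a, Eda2r and Ltbr, were lower, beside 18.7% and 17.2% of all genes. After doxorubicin 1, Tnfrsf1a, was higher and the same 3 were lower, beside 16% and 12.1% of all genes. The 3 of 9 receptors lower in Cfp1-/- cells were a larger share than that of all genes under each treatment, over 9 genes only. The receptors were chosen with earlier results of these data known, so that share is no independent result. Of the 3, only Eda2r kept its calls whichever library was left out. The 1 higher was too few to read against the background. Lama1, Pdgfra and 2 of the leukocyte markers, given above, were also higher in Cfp1-/- libraries. Of the 7 fibroblast markers tested, 1 was higher and 3 lower untreated, and 1 higher and 1 lower treated. Of the 10 pluripotency markers, 3 were higher and 3 lower untreated, and 2 higher and 1 lower treated. The part of all these markers in the receptor values was not tested. In bulk RNA, fewer cells of a type and less RNA per cell cannot be told apart.

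Ltbr was lower in Cfp1-/- cells by the widest margin, with a log2 fold change of -1.29 ± 0.33 untreated (adjusted p 0.0142, edgeR) and -1.37 ± 0.31 treated (adjusted p 0.011, edgeR). Tnfrsf12a followed, with -1.21 ± 0.29 untreated (adjusted p 0.0105, edgeR) and -1.19 ± 0.29 treated (adjusted p 0.0153, edgeR). Eda2r was the most precise of these, at -0.67 ± 0.13 untreated (adjusted p 0.00417, edgeR) and -0.88 ± 0.13 treated (adjusted p 0.00179, edgeR), and it kept its call in both comparisons whichever library was left out. Tnfrsf12a and Ltbr lost the call in untreated cells without WT replicate 2 (adjusted p 0.066 and 0.0656) or Cfp1-/- replicate 2 (0.0617 and 0.0669), and Ltbr also without Cfp1-/- replicate 1 (0.0728), by edgeR. In treated cells both lost it without WT replicate 2 (0.0955 and 0.0702) or Cfp1-/- replicate 1 (0.0578 and 0.0851), and Tnfrsf12a also without Cfp1-/- replicate 2 (0.122), by edgeR. All of these values stayed negative.

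Tnfrsf21 was higher in untreated Cfp1-/- cells by 0.76 ± 0.21 on the log2 scale (adjusted p 0.0194, edgeR), a call lost without WT replicate 1 (0.0883) or Cfp1-/- replicate 1 (0.114). After doxorubicin the difference was 0.27 ± 0.21 (adjusted p 0.361, edgeR). Tnfrsf1a was higher in treated Cfp1-/- cells by 1.62 ± 0.37 (adjusted p 0.0116, edgeR). This call was lost without WT replicate 1 (log2 fold change 1.354), Cfp1-/- replicate 1 (1.675) or Cfp1-/- replicate 2 (1.56). In untreated cells the Tnfrsf1a difference was 0.82 ± 0.39 (adjusted p 0.131, edgeR), and the libraries of the lines did not overlap. Fas did not pass in either comparison, at 0.80 ± 0.36 untreated (adjusted p 0.109, edgeR) and 0.58 ± 0.24 treated (adjusted p 0.103, edgeR), but the latter passed with the replicate number as a block (adjusted p 0.0263, edgeR). Tnfrsf10b missed the threshold in untreated cells (0.38 ± 0.14, adjusted p 0.0588, edgeR). It passed there with the block (adjusted p 0.0361), with total count scaling (0.0104), with first technical replicates alone (0.0415) and without untreated Cfp1-/- replicate 2 (0.0338), all by edgeR. With the block the number of receptors higher in Cfp1-/- cells was 2 in each comparison.

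**Figure D4:**
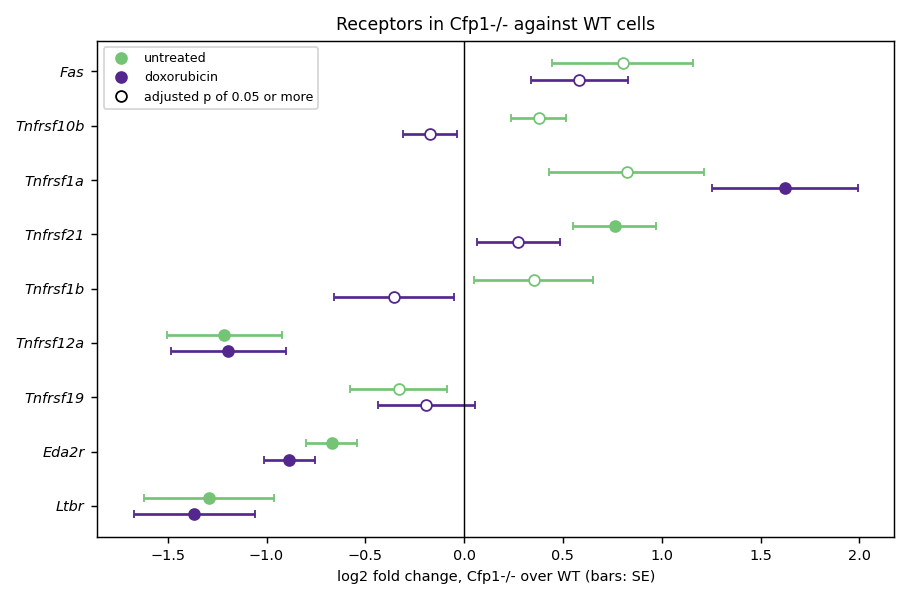
Log2 fold change of each receptor in Cfp1-/- over WT cells (x axis; bars are SE, n = 2 per group), untreated and after doxorubicin, with receptors on the y axis; filled points passed an adjusted p of 0.05 by edgeR and open points did not. Tnfrsf12a, Eda2r and Ltbr lie below 0 under both treatments, and Tnfrsf1a reaches 1.62 after doxorubicin.

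Per kb of exon, the order of the receptors changed mainly through Fas. In untreated WT cells the mean level was 31.1 CPM per kb for Eda2r, 14.5 for Tnfrsf12a, 9.91 for Tnfrsf10b, 5.00 for Tnfrsf21, 4.29 for Tnfrsf19, 2.15 for Tnfrsf1b, 1.14 for Ltbr, 0.435 for Tnfrsf1a and 0.352 for Fas. Only Tnfrsf21 and Tnfrsf19, and Tnfrsf1a and Fas, overlapped as neighbours in that order. Fas was thus last of 9 in untreated WT cells, where 20.7% of the genes tested had a lower level in CPM per kb. After doxorubicin it ranked 4 in WT cells, at 9.49 ± 1.72 CPM per kb (SD, n = 2), and 3 in Cfp1-/- cells, at 14.2 ± 2.60. Eda2r was first in all 4 groups, at 69.9 ± 8.21 CPM per kb in treated WT, 19.6 ± 2.45 in untreated and 37.9 ± 0.499 in treated Cfp1-/- cells. Ltbr was last in both Cfp1-/- groups, at 0.465 and 1.22 CPM per kb, though untreated it overlapped Fas, its neighbour in the order.

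**Figure D5:**
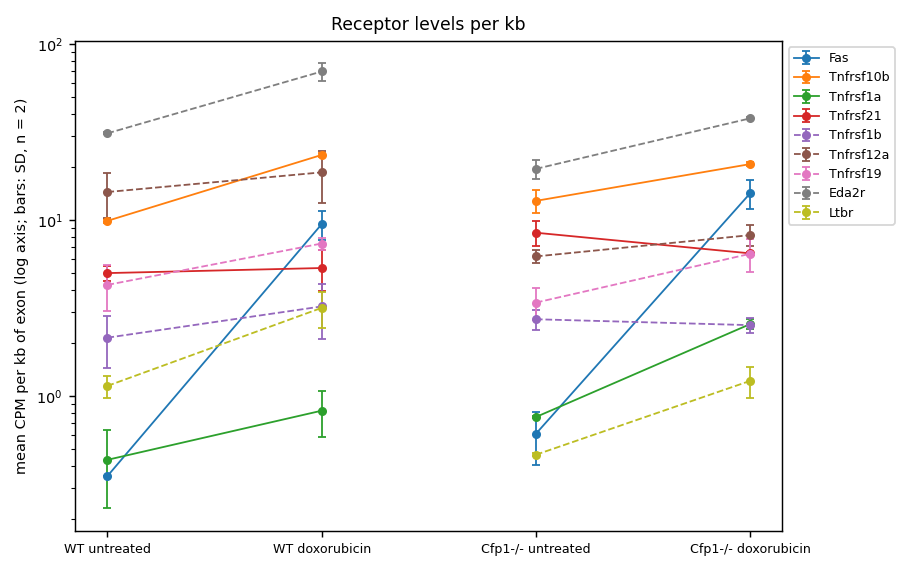
Mean level of the 9 receptors in CPM per kb of exon (y axis, log scale; bars are SD, n = 2) in the 4 groups (x axis), with lines joining the untreated and treated cells of a line; solid lines are death domain receptors and dashed lines TRAF-binding receptors. Fas climbs from 0.352 to 9.49 CPM per kb in WT cells, and Eda2r is highest in every group.

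The listed ligands of these receptors that had values were scarcely detected. Of 8 ligand genes listed, 7 had values and 2, Ltb and Eda, passed the low-count filter. Tnfsf12 (TWEAK), the ligand of Tnfrsf12a, had no gene under its symbol in the counts, so its level is not known here. Fasl had at most 4 counts in any library, Tnfsf10 (TRAIL) at most 6 and Tnf at most 1. Eda, which encodes ectodysplasin, fell in WT cells, from 1.83 and 2.53 CPM to 1.20 and 0.865 CPM (log2 fold change -1.08 ± 0.39, adjusted p 0.0428, edgeR), but not by DESeq2, which called 0 ligands in WT cells. In Cfp1-/- cells its log2 fold change was -0.77 ± 0.38 (adjusted p 0.121, edgeR). There edgeR called 0 ligands lower. DESeq2 called 1 lower, as did edgeR with all technical replicates summed, and these counts of calls do not name the ligand. Ltb had 15 and 52 counts untreated and 3 and 14 treated in WT cells, and 8 and 14 against 1 and 0 in Cfp1-/- cells. It passed in neither line (adjusted p 0.107 and 0.063, edgeR), and its fold rests on low counts and is not given. With the replicate number as a block 2 ligands were lower in WT and 1 in Cfp1-/- cells.

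Of 20 adaptors and caspases, all tested, 5 were higher and 1 lower in WT cells, and 6 higher and 4 lower in Cfp1-/- cells. Beside the shares of all genes, 27% higher and 22.8% lower in WT and 27.7% and 21.4% in Cfp1-/- cells, the counts of higher genes were near the background. With the block the number lower in WT cells was 4. The median log2 fold change of the list was -0.10 and 0.06, close to that of all genes. Edaradd, a death domain adaptor named for Edar, not Eda2r, had 5 counts in each untreated WT library and 74 and 59 after doxorubicin. Its increase on the log2 scale was 4.09 ± 0.44 for WT and 4.27 ± 0.38 for Cfp1-/- cells (adjusted p 7.74e-05 and 3.28e-05, edgeR). Edar itself, another receptor of the superfamily, had at most 26 counts in any library and was not tested. Mlkl, the pore-forming protein of necroptosis, rose by 2.77 ± 0.29 and 3.56 ± 0.31, and Traf1 by 2.80 ± 0.51 and 3.26 ± 0.53. The Traf1 values rest on few untreated counts, 21 and 4 in WT and 9 and 10 in Cfp1-/- libraries. Traf5 passed in Cfp1-/- cells alone (1.57 ± 0.47, adjusted p 0.0202, against 1.07 ± 0.46 and 0.0829 in WT cells, edgeR), and the difference between its responses did not pass (adjusted p 0.829, edgeR). Birc2, a ubiquitin ligase that inhibits apoptosis, fell by 1.04 ± 0.12 in WT and 1.00 ± 0.12 in Cfp1-/- cells (adjusted p 1.39e-04 and 1.91e-04, edgeR). Its paralogue Birc3 fell by 1.34 ± 0.25 in Cfp1-/- cells (adjusted p 0.00213, edgeR) and was at -0.46 ± 0.24 in WT cells (adjusted p 0.144, edgeR). The difference between the Birc3 responses did not pass (adjusted p 0.3865, edgeR). Fadd and Casp8, which Fas recruits, were at 0.69 ± 0.23 and -0.88 ± 0.41 in WT cells (adjusted p 0.0328 and 0.102, edgeR). In Cfp1-/- cells they were at 0.57 ± 0.23 and -0.55 ± 0.40 (adjusted p 0.065 and 0.288, edgeR).

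Of 21 genes of the NF-kB arm, 9 were higher and 0 lower in WT cells, and 4 higher and 3 lower in Cfp1-/- cells, or 5 lower with the block. The WT count of higher genes was above the share of all genes, 27%, while in Cfp1-/- cells both counts without the block were below the shares of 27.7% and 21.4%. Over the list, log2 fold changes had a median of 0.40 in WT and 0.07 in Cfp1-/- cells. For the difference between the responses 0 of these genes were called higher and 0 lower, beside 0.0952% and 0.152% of all genes. The unlike counts of the lines are thus no tested difference. Map3k14, the kinase of the non-canonical branch downstream of Ltbr, rose from 3.29 and 2.62 CPM to 29.7 and 21.4 CPM in WT cells and from 2.49 and 1.76 CPM to 16.4 and 18.3 CPM in Cfp1-/- cells. Its log2 fold changes were 3.10 ± 0.27 and 3.04 ± 0.27 (adjusted p 2.3e-05 and 3.28e-05, edgeR). Nfkb2, which encodes the precursor processed in that branch, rose by 1.42 ± 0.26 and 1.41 ± 0.26. Cyld, a deubiquitinase that restrains NF-kB signalling, rose by 1.02 ± 0.12 and 1.36 ± 0.12, and Rbck1, of the linear ubiquitin ligase, by 1.01 ± 0.13 and 0.67 ± 0.13.

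Among the other TNF receptor superfamily genes, 19 symbols carried by 20 genes since Tnfrsf22 names 2, 14 were tested. Of these 7 were higher and 0 lower in WT cells, and 7 higher and 2 lower in Cfp1-/- cells, with median log2 fold changes of 1.11 and 1.19. The shares of all genes were 27% higher and 22.8% lower in WT and 27.7% and 21.4% in Cfp1-/- cells. Tnfrsf18, a costimulatory receptor of T cells, had 0 and 1 counts in untreated WT cells and 27 and 37 after doxorubicin, and 1 and 3 against 58 and 74 in Cfp1-/- cells. Tnfrsf26 had 2 and 0 counts against 7 and 9 in WT cells, and 8 and 1 against 15 and 48 in Cfp1-/- cells. Tnfrsf9, another costimulatory receptor, had 3 and 2 counts against 45 and 27 in WT cells, and 9 and 18 against 29 and 30 in Cfp1-/- cells. The folds of these 3 genes rest on low counts and are not given. Tnfrsf23, a decoy receptor for TRAIL in the mouse, rose by 3.91 ± 0.48 in WT and 3.36 ± 0.49 in Cfp1-/- cells, from 4 to 12 untreated counts.

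For the 6 receptors that passed in either line, the genes with the most similar level across the 8 libraries were found by the root mean square distance of log2 CPM, computed with a prior count of 2 and centred on each gene's mean, with Pearson's r as a description over 8 libraries that share the 4 groups. They were Htr4, Gpr123 and Mesp1 for Fas (r 0.996 to 0.998), Cables2, Scarb1 and Atp6v0e2 for Tnfrsf10b (0.980 to 0.992), and Fzd10, Chst11 and Gramd1c for Tnfrsf1a (0.967 to 0.987). For Tnfrsf19 they were Raver2, Pigf and Tmem132a (0.960 to 0.976), for Eda2r Tspan33, Psrc1 and Il17ra (0.984 to 0.994), and for Ltbr Adamts20, Ifi30 and Olfr31 (0.979 to 0.987). The prior count brings low levels together, so that a like pattern is no like fold: in WT cells the fitted log2 fold changes of Gpr123 and Mesp1 were 8.37 and 8.06 against 4.74 for Fas, and that of Olfr31 was 2.31 against 1.48 for Ltbr. Among the receptors themselves the highest r was that of Eda2r and Ltbr, 0.978, and the lowest were those of Tnfrsf21 with Tnfrsf12a and with Ltbr, both -0.61. With DESeq2 size factors all 3 similar genes remained for each receptor except Ltbr, for which 2 remained.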

How the data were processed

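Ribosomal RNA was removed before the authors built stranded libraries. Read pairs were mapped on NCBIm37 (mm9) with STAR (2.2.1 in the submitters' processing notes) and counted Ensembl exons with HTSeq in stranded union mode. The authors deposited whole-number counts per technical replicate, and a normalised signal per biological replicate, scaled with DESeq size factors from the sum of its runs. Counts of 15 of 16 runs were summed per biological replicate and fitted with edgeR 4.0.16 in R 4.3.3 (filterByExpr, TMM, 4 group coefficients, glmQLFit, glmQLFTest, Benjamini-Hochberg over 15762 genes, residual df 4). Standard errors came from the test statistic. DESeq2 1.42.0, limma 3.58.1 on log2(signal + 1) and other settings were alternatives, and code was tested on simulated data. Same-numbered replicates deviated together (correlations 0.133 to 0.453 over 6 comparisons of groups), though no source used here says what they share. The main fit held no term for the replicate number, so its p-values take no account of such pairs. A fit with the replicate number as a block was run as an alternative. Between technical replicates, chi-square divided by its degrees of freedom was 0.998 to 1.05 in 6 pairs, 9.61 in replicate 1 of treated WT and 42.9 in replicate 1 of treated Cfp1-/- cells.

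The receptors and lists were chosen with earlier results of these data known. All 9 receptors were named. From each list at most 4 genes were named, those past the test with an absolute log2 fold change of at least 1 in either line, by the largest absolute mean of both. Fadd, Casp8, Birc2, Birc3, Lama1, Pdgfra, Ltb, Fasl, Tnfsf10 and Tnf were named after their values were seen, and Tnfsf12 for having no values. A result on 1 gene of the lists is not reported here.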

Additional observations from a re-analysis of the deposited data

How the results depend on the processing

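The 19 calls of receptors kept their direction and side of the threshold in all 190 values from the settings other than the omission of a replicate. The replicate block changed 4 of 45 results, those of Tnfrsf1a and Tnfrsf1b in WT cells, Tnfrsf10b in untreated and Fas in treated cells between genotypes, and changed no other call of a receptor. Total count scaling also brought Tnfrsf1a and Tnfrsf1b in WT cells and Tnfrsf10b in untreated cells past the threshold. Receptors higher in untreated Cfp1-/- cells numbered 2 with the replicate block, with total count scaling or with first technical replicates alone, and receptors higher in treated Cfp1-/- cells numbered 2 with the block. With the study's limits (2.5-fold, mean of 200 normalised counts) the counts were 0 and 1 for the responses of WT and Cfp1-/- cells, and 0 in both directions between genotypes. Without 1 replicate, the counts ranged from 4 to 7 for the WT response, 4 to 6 for the Cfp1-/- response, 0 to 2 higher and 1 to 3 lower in untreated, and 0 to 1 higher and 1 to 3 lower in treated Cfp1-/- cells.

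Values near 0 changed sign. With total count scaling these were Tnfrsf1b in Cfp1-/- cells (0.10) and the response difference of Tnfrsf12a (-0.085); with first technical replicates alone the differences of Fas (0.055), Tnfrsf12a (-0.16) and Ltbr (0.024); and without both second technical replicates of treated replicate 1 that of Tnfrsf12a (-0.013). Without 1 replicate the WT response ranged from -0.21 to 0.34 for Tnfrsf21 and from -0.013 to 0.69 for Tnfrsf12a, the Cfp1-/- response of Tnfrsf1b from -0.25 to 0.02, the difference from -0.53 to 0.17 for Fas, -0.34 to 0.40 for Tnfrsf12a, -0.23 to 0.37 for Tnfrsf19 and -0.31 to 0.18 for Ltbr, and treated Tnfrsf1b between genotypes from -0.67 to 0.049. Their cause was not tested.

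Total count scaling moved the median of all genes to 0.37 in WT and 0.22 in Cfp1-/- responses, and the share of calls that were higher from 54.2% and 56.4% to 75.1% and 71.0%; between genotypes it moved from 52.1% to 70.4% untreated and from 57.0% to 67.04% treated. With DESeq2 the response difference was called for 105 genes higher and 144 lower, without the count filter for 87 and 141, and with the block for 152 and 200. With 2 replicates a group, receptors at few counts, such as Tnfrsf1a, Ltbr and untreated Fas, have the widest intervals.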
